A study of Homo sapiens with 8 samples.

Results

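The endoplasmic reticulum chaperones described here are 10 genes that encode chaperones and disulfide isomerases of the ER: HSPA5, HSP90B1, HYOU1, DNAJB11, CALR, CANX, P4HB, PDIA3, PDIA4 and PDIA6. They were listed by name, with no threshold on measured values, and all 10 were found among the 26902 entries of the deposited expression table. The cells were U2OS, an established human osteosarcoma line, carrying either an overexpression construct for QKI7 or an empty vector. QKI binds RNA and belongs to the STAR family, and QKI7 is 1 of its splice forms. Both kinds of cell had received 0.5 mM sodium arsenite (NaAsO2) for 1 h, an oxidative stress that blocks translation initiation and drives the assembly of stress granules, so no value here bears on the effect of arsenite itself. The 8 libraries formed 4 groups of 2: QKI7 footprints, vector footprints, QKI7 inputs and vector inputs. Footprints are RNA fragments of 17 to 34 nt recovered from pelleted ribosomes, and inputs are RNA of the same kind of cells, both depleted of ribosomal RNA and read as single reads of 51 nt. The sources used here do not give how the construct was delivered, which promoter drives it, or whether both libraries of a group had their own culture. Each p-value therefore rests on the spread of these libraries, and that spread may be technical.

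Proteins that enter the secretory pathway fold in the ER lumen with the help of these genes' products. HSPA5 (BiP) is the Hsp70 chaperone of the lumen and also holds the stress sensors of the unfolded protein response inactive. HSP90B1 (GRP94) is its Hsp90 counterpart, DNAJB11 (ERdj3) is a J-domain co-chaperone that brings clients to HSPA5, and HYOU1 (GRP170) exchanges the nucleotide of HSPA5. Calreticulin (CALR) and calnexin (CANX) are lectins that retain glycoproteins until they are folded. P4HB, PDIA3, PDIA4 and PDIA6 form and rearrange disulfide bonds. P4HB is also a subunit of prolyl 4-hydroxylase, which modifies collagen, and PDIA3 works on the clients of the 2 lectins. When unfolded proteins accumulate, the transcription factor ATF6 is known to raise many of these mRNAs through an element in their promoters, CCAAT and CCACG separated by 9 bases.

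That element was searched in promoter sequences because it is the best known feature of this group, and the matches are shown to let the promoters be compared. RefSeq promoters (build GRCh38.p14, 250 bases before to 50 after a gene's start) were found for 9 of the 10 genes, PDIA3 having no entry. The element, searched on both strands, was present in 4 of the 9 (HSPA5, HSP90B1, CALR and CANX), against 19 of 15843 protein-coding promoters, or 0.12%, and against 7 of the 2231 promoters of genes tested below, or 0.314%. The element was picked because it was already known from this group, so these shares are a description and not a test. Both backgrounds include the 4 promoters themselves. Capitals mark the fixed letters of the element, each sequence reads 5′ to 3′ on the gene's strand, and the promoter of HSPA5 (chr9:125241294-125241593, minus strand) is given whole.
HSPA5 promoter: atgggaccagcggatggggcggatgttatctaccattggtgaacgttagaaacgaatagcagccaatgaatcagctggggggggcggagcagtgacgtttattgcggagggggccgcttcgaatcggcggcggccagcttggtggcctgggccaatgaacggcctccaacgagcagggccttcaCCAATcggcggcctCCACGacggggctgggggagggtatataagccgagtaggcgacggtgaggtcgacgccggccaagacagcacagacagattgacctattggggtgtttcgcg
HSP90B1, upstream match: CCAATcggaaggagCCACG
HSP90B1, downstream match: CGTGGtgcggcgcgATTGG
CALR: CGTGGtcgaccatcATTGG
CANX: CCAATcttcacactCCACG
Counting back from the gene's start, the match lay at -66 to -48 in HSPA5, at -194 to -176 and at -89 to -71 in HSP90B1 (chromosome 12, plus strand), at -225 to -207 in CALR (chromosome 19, plus strand) and at -151 to -133 in CANX (chromosome 5, plus strand). The CALR match and the downstream HSP90B1 match stood on the opposite strand, so they read as CGTGG, 9 bases and ATTGG. The CANX and PDIA6 entries belong to starts inside those genes' annotated spans, so for both the window is not that of the outermost start. A second form of the element, ATTGG and CCACG separated by 1 base, occurred on either strand in HYOU1 alone among the 9, and in 12 of 15843 protein-coding promoters (0.076%). CCAAT alone, which both forms contain on 1 strand or the other, was found in 8 of the 9 promoters and in 36.357% of all. A match describes letters in this window and not a bound site. Only exact matches were searched, so a promoter without a match may still hold an imperfect element or one outside the window.

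QKI was higher in every QKI7 library, at 1748.86 and 1579.91 TPM in QKI7 inputs against 3.01 and 3.45 TPM in vector inputs, and at 27.53 ± 0.75 TPM in QKI7 footprints against 0.615 ± 0.0636 TPM in vector footprints (SD, n = 2 each). TPM gives a transcript's share of all transcripts, corrected for length. It does not hold the depth, which is unknown here. Protein-coding genes held 3.716 to 4.51% of the TPM of an input and 0.611 to 0.63% of that of a footprint library. The mesenchymal marker VIM stood at 74.63 to 102.3 TPM in inputs, epithelial markers summed to at most 0.44 TPM, blood markers to at most 0.7 TPM and neural markers to 1.75 to 2.31 TPM, mostly TUBB3, while COL1A2 and TWIST1 were at or near 0. Replicate libraries correlated across the 2685 tested genes at r = 0.9904 and above in inputs and 0.9674 and above in footprints; genes are not independent replicates.

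In inputs the 10 mRNAs covered a wide range of levels, and HSP90B1 led. HSP90B1 (chromosome 12, 103930410 to 103947926, GRCh38.p14) had 53.56 and 52.02 TPM in QKI7 inputs, against 54.83 and 59.46 TPM in vector inputs. The lectin CALR (chromosome 19, 12938609 to 12944489) followed at 30.08 ± 3.21 TPM in QKI7 and 34.69 ± 2.68 TPM in vector inputs (SD, n = 2 each). Next came P4HB (chromosome 17, 81843166 to 81860535), whose libraries overlapped those of CALR in both constructs, then CANX (chromosome 5, 179678656 to 179731641) at 27.27 ± 0.516 and 27.43 ± 0.559 TPM. HSPA5 (chromosome 9, 125234853 to 125241343) was the fifth in both constructs, above 91.7% of the tested genes in QKI7 inputs and above 94.9% in vector inputs.

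The other 5 mRNAs were lower. HYOU1 (chromosome 11, 119044188 to 119057205) had 7.325 ± 0.134 TPM in QKI7 inputs and 7.24 ± 0.311 TPM in vector inputs. DNAJB11 (chromosome 3, 186570720 to 186585793) and PDIA6 (chromosome 2, 10783391 to 10837712) came next, and their libraries overlapped in vector inputs but not in QKI7 inputs. PDIA3 (chromosome 15, 43746438 to 43773278) had 3.48 ± 0.0566 TPM in QKI7 inputs and 3.145 ± 0.615 TPM in vector inputs, while PDIA4 (chromosome 7, 149003051 to 149028505) was the lowest at 2.505 ± 0.0919 and 2.465 ± 0.163 TPM. PDIA3 shares much of its sequence with the processed pseudogene PDIA3P1, which was listed at 5.83 and 5.27 TPM in QKI7 inputs against 4.42 and 4.88 TPM in vector inputs. The level of PDIA3 is uncertain for that reason. HSP90B1 has a pseudogene too, HSP90B2P, which was listed at 0.55 to 0.76 TPM in inputs.

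In footprints the order differed, with HSPA5 at the top in both constructs. HSPA5 had 5.13 and 5.34 TPM in QKI7 footprints, against 6.82 and 6.82 TPM in vector footprints, above CALR at 2.85 and 3.17 TPM in QKI7 and 3.98 and 3.72 TPM in vector footprints. P4HB and HSP90B1 were the third and the fourth in both constructs. HSP90B1, the highest of the 10 in inputs, had 1.575 ± 0.0636 TPM in QKI7 footprints and 1.68 ± 0.0707 TPM in vector footprints. CANX, PDIA6 and PDIA3 lay between 0.77 and 1.31 TPM in single footprint libraries, DNAJB11 at 0.48 to 0.71 TPM, and HYOU1 and PDIA4 overlapped at the bottom. The plot of the 10 mRNAs by library shows both orders.

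**Figure D1:**
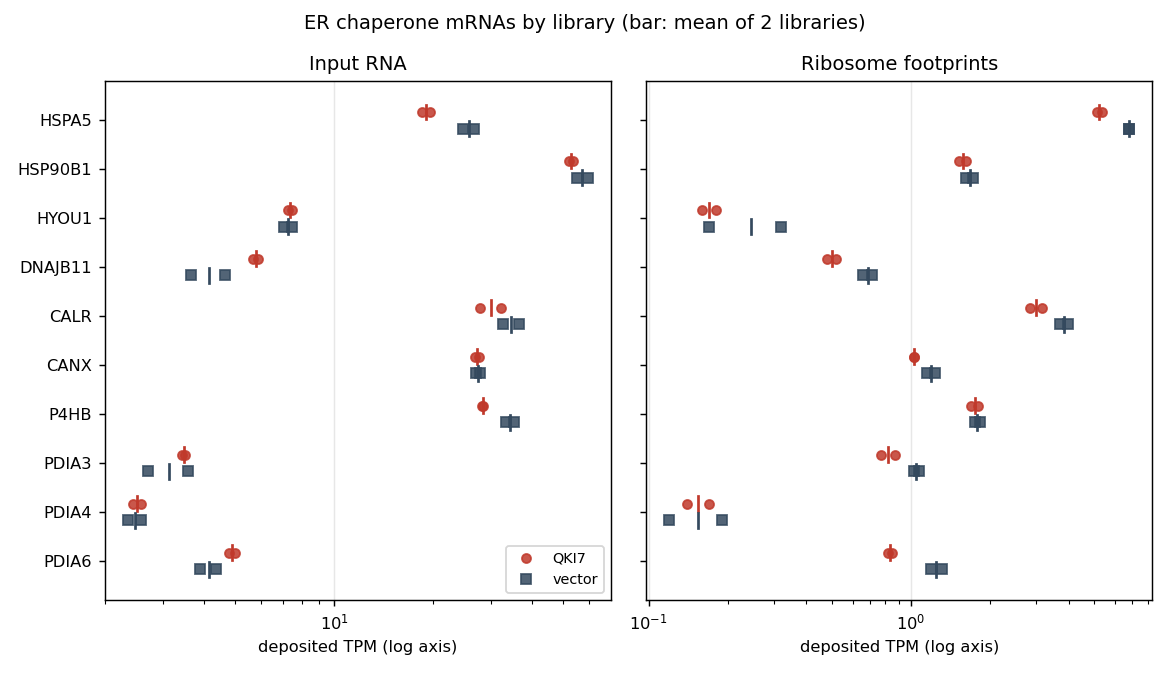
Deposited TPM of the 10 ER chaperone mRNAs in each library, on a log axis, in input RNA (left) and ribosome footprints (right), with QKI7 libraries as red circles above vector libraries as dark squares and a short bar at each group's mean of 2 libraries. HSP90B1 leads in inputs and HSPA5 in footprints, and HSPA5 is lower in both QKI7 inputs (19.59 and 18.56 TPM) than in both vector inputs (24.71 and 26.69 TPM).

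Tests were made on 2685 protein-coding genes, histone genes and QKI left out, that averaged 1 TPM or more over the inputs and 0.2 TPM or more over the footprints. Of the 10 ER chaperones 9 passed and PDIA4 did not, with a footprint mean of 0.155 TPM in both constructs. HYOU1 passed narrowly, at 0.17 TPM in QKI7 and 0.245 TPM in vector footprints. Values were rescaled so that these genes summed to 1000000 in each library, called mRNA-scaled TPM here, and log2(mRNA-scaled TPM + 1) was fitted with limma. A call means an adjusted p (Benjamini-Hochberg over all 2685 genes) under 0.05. Inputs and footprints shared the same estimate of each gene's spread. Replicates differed more in footprints, with an SD of log2 differences across genes of 0.3957 in QKI7 and 0.4188 in vector cells. In inputs these SDs were 0.1767 and 0.1988. The shared spread can thus be too small for footprints and too large for inputs, so the shares of genes called in each are not comparable. With 2 libraries against 2, an exact permutation test cannot give a p under 0.33.

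The comparison of inputs asks which of these mRNAs differed in level in cells with QKI7. HSPA5 fell, and it was the 1 of 9 members called, against 7.11% of all tested genes (191 genes, 87 higher and 104 lower). On the mRNA scale HSPA5 had 819 and 822 TPM in QKI7 inputs, against 1113 and 1116 TPM in vector inputs. The libraries of each construct were thus within a few units of each other, and the groups did not overlap. The log2 change was -0.44 (SE 0.0531, limma adjusted p = 0.00252), a level 0.736 times that in vector cells. This call held in all 8 fits that left out 1 library, with an adjusted p of at most 0.0285, and was lost when the variance was not allowed to follow the expression level (adjusted p = 0.0556). In RNA of whole cultures, fewer cells that express a gene and less RNA per cell cannot be told apart.

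The co-chaperone DNAJB11 and the prolyl hydroxylase subunit P4HB lay just outside the threshold, on opposite sides. DNAJB11 had 5.87 and 5.66 TPM in QKI7 inputs, against 3.65 and 4.63 TPM in vector inputs, with no overlap and a gap between the 2 vector libraries nearly as wide as that between the groups. Its log2 change was 0.47 (SE 0.13, adjusted p = 0.0719), higher than that of 92.8% of tested genes. P4HB had 28.25 and 28.49 TPM in QKI7 inputs, against 33.52 and 35.24 TPM in vector inputs, a log2 change of -0.29 (SE 0.074, adjusted p = 0.0579). CALR, at -0.22 (adjusted p = 0.14), and HSP90B1, at -0.13 (adjusted p = 0.285), were also lower without passing. PDIA6 at 0.23 and PDIA3 at 0.15 were higher without passing, and CANX at -0.021 and HYOU1 at 0.0046 were nearest to 0. The median change of the 9 was -0.021, beside 0.11 for all tested genes.

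The 4 genes with the promoter element were not alike in this comparison. Their log2 changes were -0.44 for HSPA5, -0.22 for CALR, -0.13 for HSP90B1 and -0.021 for CANX. P4HB, without an exact match in its window, stood at -0.29.

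Together the 10 mRNAs were lower in QKI7 inputs relative to the summed mRNA of the tested genes, which does not include PDIA4. They came to 0.7753 and 0.7864% of that sum in QKI7 inputs against 0.8673 and 0.8716% in vector inputs. The ratio of means was 0.898, without overlap. In footprints the 10 came to 0.3437 and 0.3488% in QKI7 cells against 0.3634 and 0.3561% in vector cells. The ratio there was 0.962, also without overlap. The exact two-sided permutation p was 0.33 in both, the smallest this design allows. HSPA5 made up 10.5% ± 0.14 of the summed TPM of the 10 in QKI7 inputs and, rounded, 12.8% in each vector input. In footprints it made up 34.7% ± 0.14 in QKI7 and 36.4% ± 0.42 in vector cells (SD, n = 2 each). For HSP90B1 these shares were 29.1% ± 0.28 in QKI7 inputs and, rounded, 28.5% in each vector input. In footprints they were 10.4% ± 0.21 in QKI7 and 8.98% ± 0.47 in vector cells.

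Footprints of the same genes were compared to ask whether ribosome-bound mRNA differed with QKI7. PDIA6 fell, again 1 of 9 members, where 31.8% of all tested genes were called (855 genes, 618 higher and 237 lower). PDIA6 had 0.82 and 0.85 TPM in QKI7 footprints, against 1.31 and 1.19 TPM in vector footprints. On the mRNA scale its log2 change was -0.32 (SE 0.105, limma adjusted p = 0.0476). This call was kept in 1 of the 8 fits that left out a library and lost in the other 7, where the adjusted p reached 0.133.

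The remaining footprint changes were within 0.22 of 0 on the log2 scale. P4HB stood at 0.22 (SE 0.074, adjusted p = 0.0532) and HSP90B1 at 0.16 (SE 0.0616, adjusted p = 0.0763), both with QKI7 libraries above vector libraries on the mRNA scale. HSPA5 stood at -0.12 (SE 0.0531, adjusted p = 0.112), DNAJB11 at -0.20, CALR and PDIA3 at -0.10 each, and CANX at 0.044, with adjusted p from 0.112 upwards. HYOU1, at -0.20, rested on 1 library: it had 0.18 and 0.16 TPM in QKI7 footprints against 0.32 and 0.17 TPM in vector footprints, and its change was 0.25 without the first vector library. The median of the 9 was -0.10, beside 0.09 for all tested genes.

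These footprint values moved with the scale more than the input values did. The tested genes summed to 4309 and 4401 TPM in QKI7 footprints, against 5192 and 5218 TPM in vector footprints, so rescaling to equal sums lifts every QKI7 footprint value. Without rescaling, the median tested gene changed by -0.16 in footprints, and HSPA5 (-0.38, adjusted p = 0.00545), PDIA6 (-0.58, adjusted p = 0.00741), CALR (-0.36, adjusted p = 0.0251) and DNAJB11 (-0.45, adjusted p = 0.0464) were called lower. With scaling by the median of ratios, HSPA5 (-0.23, adjusted p = 0.0128) and PDIA6 (-0.43, adjusted p = 0.0166) were called. P4HB and HSP90B1 changed sign without rescaling, to -0.037 and -0.092. The negative direction of HSPA5, PDIA6, CALR, DNAJB11, PDIA3 and HYOU1 in footprints was the same under these scales.

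**Figure D2:**
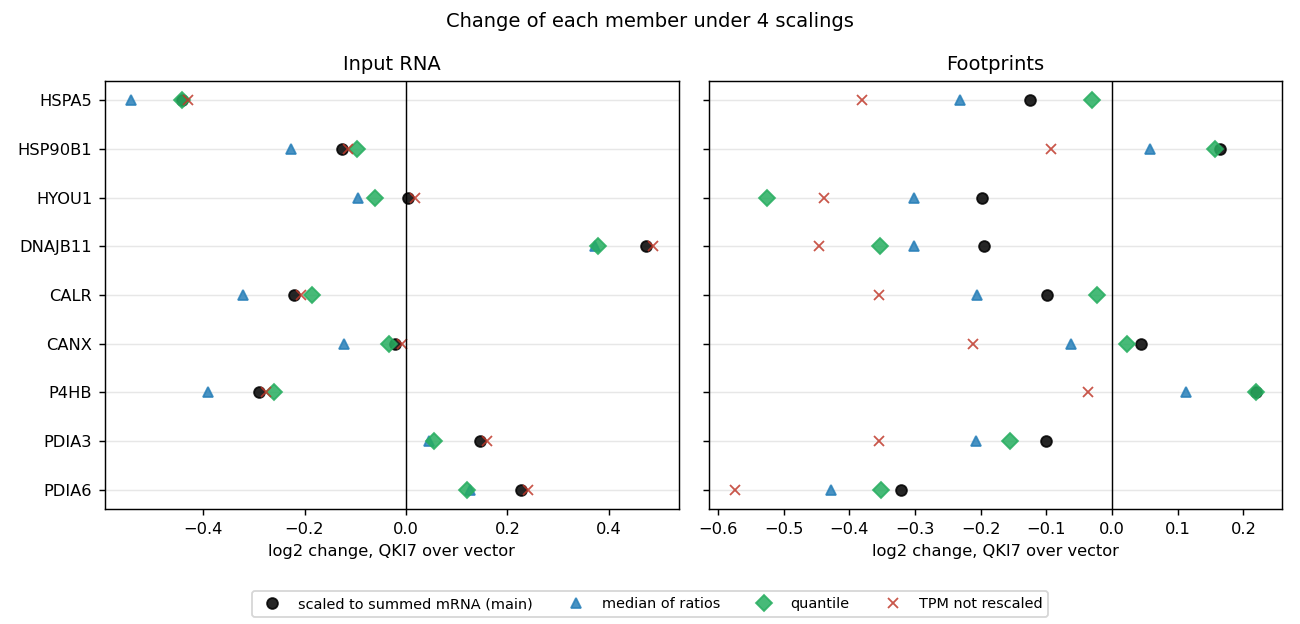
Log2 change of 9 ER chaperones, QKI7 over vector, in inputs (left) and footprints (right) under 4 scalings: sums of tested mRNA made equal (black circles), median of ratios (blue triangles), quantile normalization (green diamonds) and TPM not rescaled (red crosses). In inputs HSPA5 lies between -0.54 and -0.43 under all 4, while in footprints it ranges between -0.38 and -0.03 and PDIA6 between -0.58 and -0.32.

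Translation efficiency is the footprint change minus the input change, a difference that asks whether ribosome occupancy per mRNA moved with QKI7. Here 4 of 9 members were called, 2 higher and 2 lower, against 12.8% of all tested genes (343 genes, 260 higher and 83 lower). P4HB rose by 0.51 (SE 0.105, limma adjusted p = 0.0167), and HSPA5 rose by 0.32 (SE 0.0751, adjusted p = 0.0275). DNAJB11 fell by 0.67 (SE 0.183, adjusted p = 0.0487) and PDIA6 fell by 0.55 (SE 0.148, adjusted p = 0.0462). The 2 that rose were the 2 with the most negative input changes, and the 2 that fell were those with the most positive ones. An efficiency change subtracts the input change, so the input values enter both sides of that statement and it is not a separate result.

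In single values, P4HB on the mRNA scale had 420 and 384 TPM in QKI7 footprints against 339 and 351 TPM in vector footprints, and 1181 and 1261 TPM in QKI7 inputs against 1510 and 1474 TPM in vector inputs. On this scale the groups thus stood in opposite order in the 2 kinds of library. In deposited TPM the P4HB footprint libraries overlapped, at 1.81 and 1.69 TPM in QKI7 against 1.76 and 1.83 TPM in vector cells. For DNAJB11 the order was opposite as well, with 121 and 109 TPM in QKI7 footprints against 127 and 136 TPM in vector footprints, and 245 and 251 TPM in QKI7 inputs against 164 and 194 TPM in vector inputs. HSPA5 was lower in QKI7 cells in both kinds of library, with 1190 and 1213 TPM in QKI7 footprints against 1314 and 1307 TPM in vector footprints. Leaving out any 1 of the 4 input libraries left 0 of 9 members called, and so did a variance that does not follow the expression level. Whether a call is kept with a library left out depends in part on the shared spread, which a noisier footprint library can raise. The changes themselves ranged from -0.785 to -0.551 for DNAJB11 and from -0.621 to -0.476 for PDIA6 in fits that left out 1 library. For HSPA5 they ranged from 0.304 to 0.331, and for P4HB from 0.444 to 0.573. Both rises were lost where mRNA was not rescaled: HSPA5 stood at 0.084 on log2(deposited TPM + 1) (adjusted p = 0.58) and at 0.048 on TPM not rescaled (adjusted p = 0.788), and P4HB at 0.24 on both (adjusted p = 0.0981 and 0.192). DNAJB11 and PDIA6 were called lower on both of these scales. DNAJB11 lost its call with median of ratios (-0.67, limma adjusted p = 0.0514). PDIA6 lost its call with quantile normalization (-0.47, limma adjusted p = 0.0794). HSPA5 and P4HB kept theirs under both of those scalings. HSP90B1 at 0.29 (adjusted p = 0.0639), CALR at 0.12, CANX at 0.065, HYOU1 at -0.20 and PDIA3 at -0.25 did not pass.

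**Figure D3:**
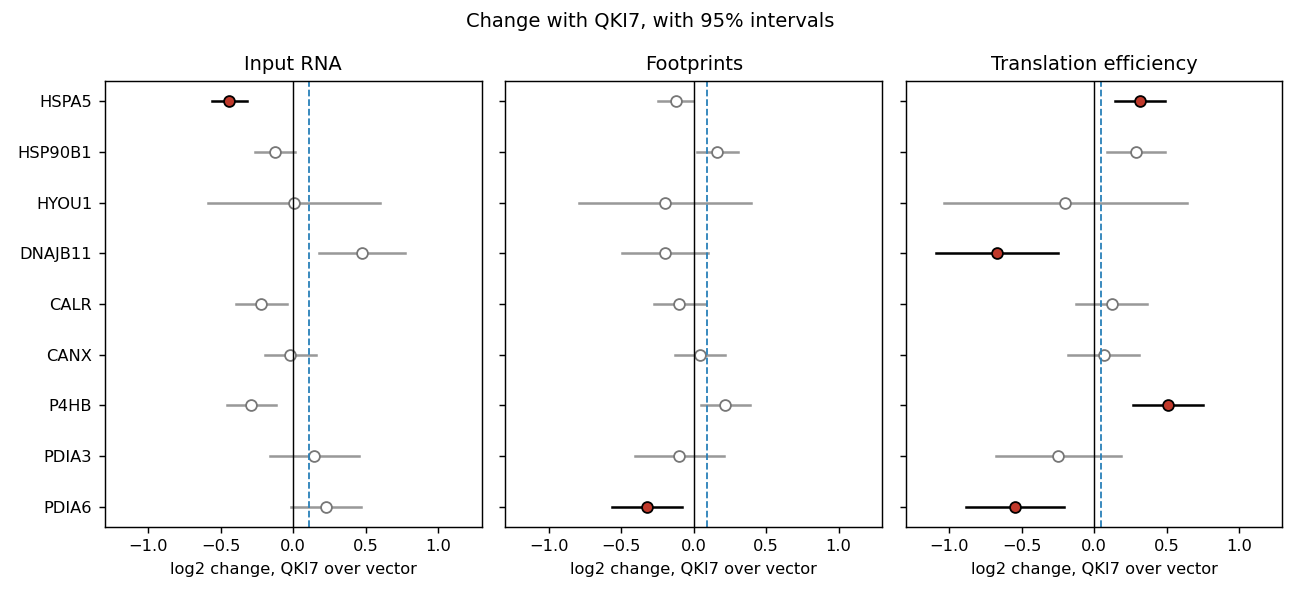
Log2 change of 9 ER chaperones, QKI7 over vector, in inputs, in footprints and in translation efficiency, with 95% intervals from the limma fit; filled red points passed an adjusted p of 0.05 and the dashed line is the median of the 2685 tested genes. HSPA5 is called in inputs (-0.44), PDIA6 in footprints (-0.32), and HSPA5, P4HB, DNAJB11 and PDIA6 in efficiency.

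Footprints were then set against inputs within each construct, on the mRNA scale, to ask how far footprint levels departed from input levels. Whether this ratio follows transcript length was not tested. The ratio of footprint to input differed 11.8-fold among the 10 genes in QKI7 cells and 11.4-fold in vector cells. HSPA5 was among the highest, with a ratio of 1.47 in QKI7 cells and 1.18 in vector cells, beside a median of 0.611 and 0.597 over the tested genes. PDIA3 (1.26 and 1.48) and PDIA6 (0.912 and 1.34) were close to it. HSP90B1 had 0.159 in QKI7 and 0.13 in vector cells, above 8.98% and 10.5% of tested genes. HYOU1 (0.124 and 0.15), CANX (0.202 and 0.193) and P4HB (0.329 and 0.231) were low too, with CALR (0.535 and 0.492) and DNAJB11 (0.463 and 0.735) nearer the median.

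In QKI7 cells 8 of 9 members were called, 2 higher and 6 lower in footprints, against 79.9% of all tested genes. In vector cells 9 of 9 were called, 3 higher and 6 lower, against 79.2% of all tested genes. Both counts are close to what most genes show, so the spread among members says more than the number called. HSPA5 was higher in footprints by 0.55 in QKI7 cells (SE 0.0531, limma adjusted p = 1.34e-05) and by 0.23 in vector cells (SE 0.0531, adjusted p = 0.00318). With only the 389 genes of a stricter filter, HSPA5 stood at 0.059 in QKI7 cells (adjusted p = 0.283) and was lower in footprints in vector cells (-0.19, adjusted p = 0.0064), so its direction depends on the genes it is scaled to. PDIA6 was called in vector cells (0.42, adjusted p = 0.00545) and not in QKI7 cells (-0.13, adjusted p = 0.273). PDIA3 was at the threshold in QKI7 cells (0.33, adjusted p = 0.0498), and its call there was kept in 3 of the 8 fits that left out a library; the adjusted p was 0.0526 with median of ratios. The lowest values were -2.98 for HYOU1 in QKI7 cells and -2.94 for HSP90B1 in vector cells. Adding the pseudogene PDIA3P1 to PDIA3 gave ratios of 0.55 in QKI7 and 0.757 in vector cells, on the other side of 1, so the ratio of PDIA3 depends on how reads were divided between them. The low end of the ratio is cut off by the filter of 0.2 footprint TPM, which PDIA4 (0.33 and 0.278) missed.

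**Figure D4:**
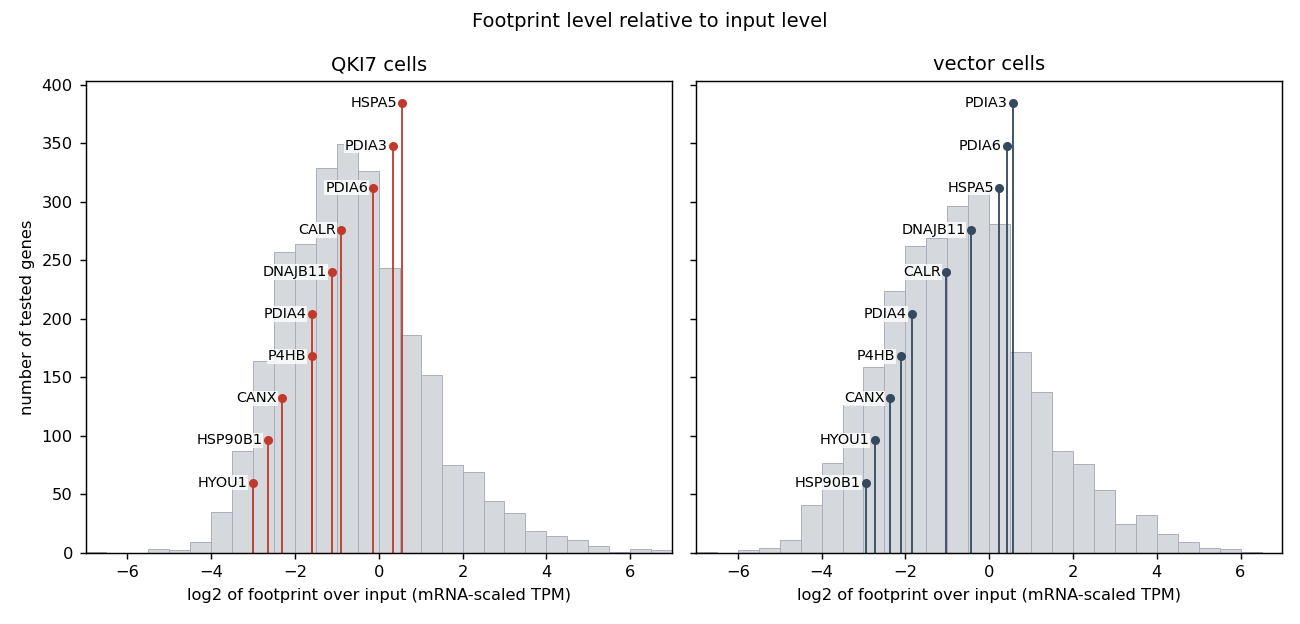
Number of tested genes (grey bars, 2685 in all, bins of 0.5) by log2 ratio of footprint to input in QKI7 cells (left) and vector cells (right), with the 10 ER chaperones as labelled pins whose height has no meaning; values past the axis are drawn in its last bin. HSPA5, PDIA3 and PDIA6 lie at the right and HSP90B1 and HYOU1 at the left, with PDIA6 left of 0 in QKI7 cells and right of 0 in vector cells.

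HSPA5 and HSP90B1, both lumenal chaperones with the promoter element, had ratios of 1.47 and 0.159 in QKI7 cells. CALR and CANX, the 2 lectins of the same cycle, had 0.535 and 0.202 there. The 4 disulfide isomerases covered 0.329 to 1.26 in QKI7 cells and 0.231 to 1.48 in vector cells.

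Other genes of ER folding were counted from lists of related genes. Among 44 other foldases and co-chaperones, 23 were tested: 2 rose and 1 fell in inputs, 5 rose and 2 fell in footprints, and 2 rose in efficiency. Over all tested genes the shares called were 7.11% in inputs, 31.8% in footprints and 12.8% in efficiency, so 7 of 23 in footprints is near the background. In inputs SDF2, a lumenal partner of co-chaperones, rose by 1.01 (adjusted p = 0.0412), the collagen chaperone SERPINH1 rose by 0.44 (adjusted p = 0.0413) and the prolyl isomerase PPIB fell by 0.44 (adjusted p = 0.00631). In footprints FKBP10, a prolyl isomerase of collagen folding, rose by 1.14 (adjusted p = 0.000735), as did DNAJC1, a J-domain protein of the ER membrane, by 1.00 (adjusted p = 0.00754). CRELD2 and FKBP10 were the 2 called in efficiency, by 1.02 (adjusted p = 0.0226) and 0.98 (adjusted p = 0.0159). The median change of the list was 0.26 in inputs and 0.09 in footprints, beside 0.11 and 0.09 for all tested genes.

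Stress sensors and ER-associated degradation had 12 of 30 genes tested, with 0 called in inputs, 4 higher and 3 lower in footprints and 1 higher in efficiency. The 7 of 12 in footprints stand beside 31.8% of all tested genes, and the 1 of 12 in efficiency beside 12.8%. XBP1, a transcription factor of the unfolded protein response, had 0.12 and 0.18 TPM in QKI7 footprints against 0.33 and 0.27 TPM in vector footprints (log2 change -0.75, adjusted p = 0.0345). Its input levels of 2.39 and 2.46 TPM in QKI7 and 2.55 and 2.52 TPM in vector cells gave -0.08 (adjusted p = 0.88). DDIT3 (CHOP), a transcription factor of prolonged stress, had 1.54 and 1.49 TPM in QKI7 footprints against 1.48 and 1.44 TPM in vector footprints. These deposited values are close, and after rescaling DDIT3 rose by 0.31 (adjusted p = 0.0241), so most of that change comes with the scale. Its inputs had 28.61 and 28.3 TPM in QKI7 cells against 24.21 and 29.68 TPM in vector cells. NPLOC4, a cofactor of the segregase VCP, rose by 1.04 in footprints (adjusted p = 0.000415) and by 0.79 in efficiency (adjusted p = 0.0167). HERPUD1, a membrane protein of the degradation machinery, did not pass in footprints (-0.77, adjusted p = 0.18).

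Translocon, signal sequence and oligosaccharyltransferase genes had 25 of 34 tested, with 0 called in inputs, 3 higher and 3 lower in footprints, and 1 higher and 1 lower in efficiency. The 6 of 25 in footprints and the 2 of 25 in efficiency are below the 31.8% and 12.8% of all tested genes. KTN1, the kinesin receptor kinectin of the ER membrane, rose in footprints by 0.95 (adjusted p = 0.00101), and DAD1, an oligosaccharyltransferase subunit, fell by 0.54 (adjusted p = 0.0244). SEC61B, a subunit of the translocon, gave -0.23 in footprints (adjusted p = 0.552). Within cells this list's median footprint change against inputs was -0.04 in QKI7 and 0.08 in vector cells, beside -0.72 and -0.75 for all tested genes. These medians lie between 2 opposite sets. In QKI7 cells 9 were called higher and 10 lower, and in vector cells 10 higher and 10 lower, beside 79.9% and 79.2% of all tested genes called. Called changes in vector cells ran from 5.885 for SEC61G to -4.773 for KTN1.

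Of the chaperones of the cytosol and mitochondria, outside the ER, 16 of 17 were tested, and in inputs 5 rose and 0 fell, beside 7.11% of all tested genes called. HSPH1, a nucleotide exchange factor, rose by 0.73 (adjusted p = 0.0104), DNAJB1, a J-domain protein induced by heat, by 0.61 (adjusted p = 0.0148), and the mitochondrial chaperonins HSPE1 and HSPD1 by 0.50 (adjusted p = 0.0143) and 0.49 (adjusted p = 0.00681). In footprints 7 rose and 2 fell, beside 31.8% of all tested genes called. In efficiency 2 rose and 4 fell, beside 12.8%, with a median of -0.19 against 0.05 for all tested genes. HSPA9, the mitochondrial Hsp70, fell in efficiency by 0.51 (adjusted p = 0.0435) and HSPD1 fell by 0.49 (adjusted p = 0.0193), while the small heat shock protein HSPB1 rose by 0.41 (adjusted p = 0.00793). HSPA1A, an inducible cytosolic Hsp70, rose in footprints by 1.13 (adjusted p = 3.64e-05) and in efficiency by 0.75 (adjusted p = 0.00292). HSPA5 stood at -0.12 in footprints. HSPA1B, the near-identical copy of HSPA1A, was the listed gene not tested, because it had no entry of its own. Whether its reads were counted under HSPA1A is not known. The difference between the 2 compartments was not tested.

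Over the 8 libraries, after the mean of each library type was removed, the 5 genes whose values followed HSPA5 most closely were RPL38 (r = 0.99), RPS10, RPL23, PFDN2 and LGALS1 (r = 0.99). RPL38, RPS10 and RPL23 are ribosomal proteins, PFDN2 is a subunit of prefoldin and LGALS1 is a galactose-binding lectin. Of the other ER chaperones CALR came closest, at r = 0.85, and DNAJB11 was farthest, at -0.73. These correlations describe 8 libraries that share their scaling and their 2 constructs, and say nothing of shared control.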

How the data were processed

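Input RNA and ribosome footprints were measured in 4 input and 4 footprint libraries of U2OS cells. The authors deposited 1 table of TPM with 2 decimals for 26902 entries; STAR and RSEM 1.2.31 are named in the submitters' processing notes, without settings, and whether strand was used is not stated there. Gene classes and positions came from RefSeq (GRCh38.p14), with 23970 entries matched by symbol and 1395 by an older symbol. Groups came from the sample labels. The 2685 tested genes were rescaled to a sum of 1000000 per library, and log2(value + 1) was fitted with limma 3.58.1 in R 4.3.3 (4 group means, 4 residual degrees of freedom, variance trend), with two-sided p-values adjusted by Benjamini-Hochberg. Fold changes are on this log2 scale, and the pseudocount understates those of low values. The plain scale log2(deposited TPM + 1) was an alternative, because a pseudocount of 1 weighs on footprint TPM. The fit was also run on simulated data drawn from the means and spreads of these libraries, and that outcome is not given here.

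The ER chaperones, the related lists, the tests and the rule for named genes (all members, up to 4 called genes per list and comparison by size, with XBP1, DDIT3, HERPUD1, SERPINH1, SEC61B and QKI always considered) were chosen with earlier results of these data known. Not every gene within that rule was described above. Among those left out were STT3B (0.93), RRBP1 (0.71) and DERL1 (-0.75) in footprints and SSR4 (-0.92) in efficiency. Alternatives changed the scale, pseudocount, filter, variance trend and replicate block, or left out each library.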

Additional observations from a re-analysis of the deposited data

Results flagged for a closer look

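The change with QKI7 differed between footprints and inputs for 4 ER chaperones by the interaction term of the limma fit, which is their change in translation efficiency. The difference, footprint change minus input change on the log2 scale, was 0.3173 for HSPA5 (-0.12 in footprints and -0.44 in inputs), 0.5088 for P4HB (0.22 and -0.29), -0.5486 for PDIA6 (-0.32 and 0.23) and -0.6681 for DNAJB11 (-0.20 and 0.47). On the mRNA scale the 2 changes had opposite signs for P4HB, PDIA6 and DNAJB11, and the same sign for HSPA5. On TPM not rescaled the P4HB changes had the same sign, at -0.037 in footprints and -0.28 in inputs. Where mRNA was not rescaled the difference was 0.084 (deposited scale) and 0.048 (TPM not rescaled) for HSPA5 and 0.24 on both for P4HB, all short of the threshold. DNAJB11 was short of it with median of ratios, and PDIA6 with quantile normalization. No group held enough libraries to look for a library far from the rest.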

How the results depend on the processing

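Over 817 recomputed changes of single members, 695 kept their direction and side of the threshold, 59 lost and 22 gained a call, and 41 changed sign; the cause was not tested unless named. HSPA5 in inputs was called under every alternative but the fit without a variance trend (0 members). Input calls numbered 4 of the members on the deposited scale, 3 with median-of-ratios scaling, and 1 to 2 with 1 library left out; over all genes they numbered 2587 of 5806 on the deposited scale, 85 of 14256 without the footprint filter, 84 of 2685 without the trend, and 58 to 231 with 1 library left out, against 191 of 2685. The stricter filter tests 389 genes, and of the members only CALR, CANX, HSP90B1, HSPA5 and P4HB. These denominators hold below. In footprints the deposited scale and median of ratios both called HSPA5 and PDIA6, both lower. The stricter filter instead called HSP90B1 (0.24, limma adjusted p = 0.0125) and P4HB (0.29, limma adjusted p = 0.0123), both higher, with HSPA5 at -0.05 (adjusted p = 0.437). Footprint member calls numbered 2 on the deposited scale, with median of ratios and with the stricter filter, 3 without the filter, 4 on TPM not rescaled (chosen after seeing the data), 0 without the trend and 0 to 2 with 1 library left out; over all genes 476 (deposited scale), 1990 (no filter), 180 (stricter filter) and 642 to 786. Efficiency member calls numbered 2 on the deposited scale and not rescaled (DNAJB11 and PDIA6), 2 with the stricter filter (HSPA5 and P4HB), 0 without filter or trend, and 0 to 4 with 1 library left out; over all genes 1461, 209 (no filter), 132 (stricter) and 136 to 457. Footprint against input, the stricter filter, which tests fewer genes, called 5 members in vector and 4 in QKI7 cells; gene calls were 5703 and 5667 on the deposited scale, 10183 and 10425 without filter, and 350 and 349 when stricter, in QKI7 and vector cells.

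Deviations of libraries with the same replicate number were nearly uncorrelated across genes (-0.0626 to 0.02551). This cannot tell whether such libraries came from 1 culture, since noise between libraries can hide it. With the replicate block 0 members were called in footprints and 2 in efficiency (HSPA5 and P4HB), and with a culture replicate block 1 (P4HB).

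Signs that turned in inputs: HSP90B1 0.0199 and CANX 0.125 (stricter filter), HYOU1 -0.0954 (median of ratios), -0.0618 (quantile) and -0.107 (no filter); with 1 library left out, PDIA3 ranged from -6.2e-05 to 0.292, CANX from -0.054 to 0.0117 and HYOU1 from -0.0551 to 0.0643. In footprints, in the order deposited scale, no filter and not rescaled: HSP90B1 -0.0576, -0.0522 and -0.0925; CANX -0.112, -0.172 and -0.211, with -0.0625 by median of ratios; P4HB -0.0236 (deposited) and -0.037 (not rescaled). With 1 library left out, CANX ranged from -0.014 to 0.101 and HYOU1 from -0.648 to 0.251. In efficiency: CALR -0.0739 (deposited) and -0.148 (not rescaled); CANX -0.104, -0.203, -0.0385 (no filter) and -0.00674 (stricter); HYOU1 ranged from -0.653 to 0.247. Footprint against input turns negative by construction where mRNA is not rescaled: in QKI7 cells HSPA5 -1.69 (deposited) and -1.86, PDIA3 -1.3 and -2.07; in vector cells HSPA5 -1.77 and -1.91, PDIA3 -1.01 and -1.56, PDIA6 -1.19 and -1.72. The filter turned PDIA6 in QKI7 cells (0.229, no filter), DNAJB11 in vector cells (0.0269, no filter) and HSPA5 in vector cells (-0.187, stricter). The summed share of the 10 genes in footprints was 0.805 times that of vector cells as deposited TPM. Depth is unknown from TPM.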
